A study of Mus musculus with 48 samples.

Results

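Emr1, Cd14, Msr1, Itgam, Ly86 and Ly96 are 6 genes of macrophages and of the machinery by which these cells sense endotoxin. They were taken by symbol from the 561 gene probes of the NanoString nCounter Mouse Immunology panel, in which a colour-coded probe pair is counted for each transcript without amplification, and they were described over every library. Their rows were found under exactly these symbols, and Emr1 is now named Adgre1. All 6 passed the filter on low counts, a mean of at least 10 counts per library, with mean counts from 663 for Ly96 to 3728 for Emr1.

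Epididymal white fat, a visceral depot next to the testis, was taken from mice of the strain C3H/HeOuJ. This strain carries a working Tlr4, unlike its relative C3H/HeJ. Mice ate 1 of 6 diets for 6 months. The control group ate chow (8 libraries). The other groups ate diets with 42% of calories as carbohydrate and 42% as fat. There were 4 custom diets that paired sucrose or starch with palmitate or oleate, namely sucrose/palmitate (8), starch/palmitate (7), sucrose/oleate (9) and starch/oleate (9), and a purchased western diet (7). Palmitate is a saturated and oleate a monounsaturated fatty acid. The labels give no age at start, no body weight and no pooling of animals, so the p-values measure the spread between these 48 libraries.

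Macrophages of the fat pad clear dying adipocytes and take up the lipid they release, and their number is known to grow in obesity. Endotoxin, the lipopolysaccharide of Gram-negative bacteria, is handed by CD14 to a receptor made of TLR4 and MD-2, which signals through MyD88 to NF-kappa B. Emr1 encodes F4/80, a surface protein widely used to mark mouse macrophages. Msr1 encodes scavenger receptor A, which takes up modified lipoproteins. Itgam encodes CD11b, the integrin chain that pairs with CD18 (Itgb2) on macrophages, neutrophils and natural killer cells. Cd14 encodes the co-receptor that carries endotoxin to TLR4, and Ly96 encodes MD-2, the part of the receptor that binds it. Ly86 encodes MD-1, a relative of MD-2 that pairs with RP105 on B cells, macrophages and dendritic cells.

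Promoter windows of Itgam and Ly86 were taken from the RefSeq promoter table (build GRCm38.p6), and none is shown for the other genes. Within a diet the 6 genes varied together, and Itgam and Ly86 were the least alike pair. The windows cover the 250 bases before the start of each gene on the plus strand, chr7:128062390-128062639 for Itgam and chr13:37345095-37345344 for Ly86. Capitals mark the letters GAGGAA or their reverse complement TTCCTC, the core bound by the myeloid factor PU.1.
Itgam: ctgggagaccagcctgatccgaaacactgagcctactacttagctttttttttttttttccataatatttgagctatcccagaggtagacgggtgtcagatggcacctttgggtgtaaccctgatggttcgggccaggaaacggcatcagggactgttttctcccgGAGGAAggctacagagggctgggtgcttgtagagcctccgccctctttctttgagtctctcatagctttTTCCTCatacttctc
Ly86: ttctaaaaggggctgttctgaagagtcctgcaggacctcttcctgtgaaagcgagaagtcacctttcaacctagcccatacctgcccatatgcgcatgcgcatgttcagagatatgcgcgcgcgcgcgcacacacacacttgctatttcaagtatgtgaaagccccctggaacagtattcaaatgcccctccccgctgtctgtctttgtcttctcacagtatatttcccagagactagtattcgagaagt
The Itgam window held the letters 2 times, starting 84 bases before the gene start on the plus strand (position -84) and 15 bases before it on the minus strand (position -15). The Ly86 window held none, which says only that these letters are not in this window. Of 32851 such windows in the table, 23.3% held the letters on either strand.

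Total gene counts ran from 396391 to 888687 per library, and the background probes averaged 7.51 counts with a highest value of 21, against a lowest count of 101 for any of the 6 genes (Msr1, in a chow library). Levels below are counts divided by each library's factor from 14 reference genes, written as scaled counts. In 6 libraries a score of epithelium, a tissue foreign to the pad, stood apart from the rest: starch/palmitate replicates 1 and 3, starch/oleate replicates 2 and 6, and western diet replicates 2 and 6. The score is the mean log2 scaled count of the epithelium markers. It lay above the median of all libraries by more than 3 scaled median absolute deviations. Within diets the 6 genes fell as that score grew, with Pearson's r from -0.59 for Msr1 to -0.44 for Ly86 over 48 libraries. Results without these 6 libraries are given where a call on scaled counts against chow changes. Changes in the other comparisons are not listed. The ratio of the 2 strongest spiked control probes, which are added to each RNA and stand for no gene of the tissue, was 3.168 to 3.394 in chow. It was 2.921 to 3.158 in starch/palmitate and 2.921 to 3.067 in sucrose/oleate, below every chow library, so for these diets the ratio and the diet cannot be told apart. The labels name no assay run. The adipocyte markers were present at high level, with a summed scaled count of at least 25110 in every library.

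Levels of all 6 genes were lowest in chow and highest in the starch/oleate diet, by group mean. Against chow, starch/oleate raised each of the 6 genes, from 1.91-fold (Ly96) to 3.31-fold (Msr1). Sucrose/oleate raised 5 genes, starch/palmitate and the western diet 4 each, and sucrose/palmitate 3. Itgam passed the test in starch/oleate and in none of the other diets, and Ly96 passed in both oleate diets. With the ratio of the spiked controls as a covariate, the 6 calls in starch/oleate and the 4 in the western diet held, and none of the 12 calls in the other 3 diets did. None of the 6 was called lower in any diet. The share of all 491 tested genes called higher was 14.9% with sucrose/palmitate, 20.6% with starch/palmitate, 28.9% with sucrose/oleate, 48.3% with starch/oleate and 32.8% with the western diet. In the same order 11, 23, 38, 59 and 39 genes were called lower, 6.92% over the 5 diets together. A test of any difference among the 6 groups called 6 of the 6 genes, against 64.8% of all genes. In bulk tissue, more (or fewer) cells of a type cannot be told apart from more (or less) RNA per cell.

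**Figure D1:**
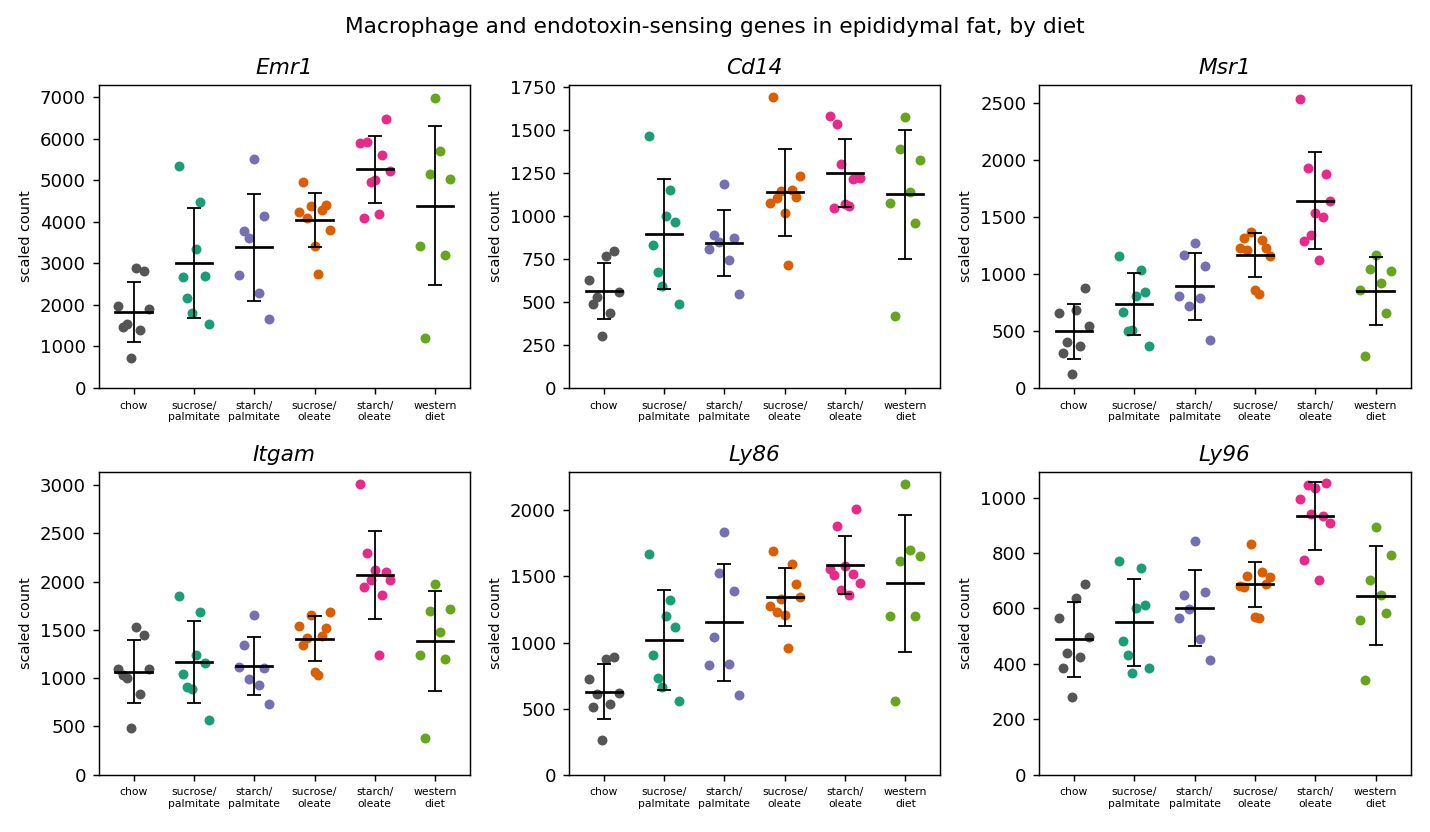
Scaled counts of the 6 genes in each of the 48 libraries, by diet (points), with the group mean (thick line) and SD (error bars). In starch/oleate every library lies above the highest chow library for 5 genes, and 8 of 9 do for Itgam.

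The surface receptors come first, beginning with the F4/80 gene. The scaled count of Emr1 in chow was 730 at the lowest, 1721 at the median and 2878 at the highest. The sucrose/palmitate libraries spanned 1548 to 5334 with a median of 2674, and the starch/palmitate libraries 1664 to 5520 with a median of 3601. Both palmitate groups overlapped chow, with 3 of 8 and 4 of 7 libraries above the highest chow library. The sucrose/oleate libraries lay between 2746 and 4969 (median 4234), and 8 of 9 were above the highest chow library. The starch/oleate libraries lay between 4097 and 6477 (median 5212), all 9 above every chow library. The western diet group was the most scattered, from 1194 to 6982 with a median of 5023, and its lowest library, replicate 2, is 1 of those with high epithelium markers. The log2 differences from chow were 0.71 ± 0.26 (SE, adjusted p = 0.049) for sucrose/palmitate, 0.88 ± 0.27 (adjusted p = 0.013) for starch/palmitate and 1.14 ± 0.25 (adjusted p = 0.00058) for sucrose/oleate. They were 1.52 ± 0.26 (adjusted p = 3.5e-06) for starch/oleate and 1.26 ± 0.27 (adjusted p = 0.00027) for the western diet. The sucrose/palmitate call was lost in 35 of the 48 fits that each left out 1 library, with log2 differences of 0.54 to 0.83.

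Msr1 ranged in chow from 122 to 876 with a median of 472, and its coefficient of variation there, 49.0%, was the largest of the 6 genes. In starch/oleate its scaled counts ran from 1122 to 2537 (median 1534), with no overlap with chow. Sucrose/oleate gave 820 to 1370 (median 1230), with 7 of 9 libraries above chow. The palmitate groups were lower, at 372 to 1158 (median 736) with sucrose and 418 to 1270 (median 802) with starch, and both overlapped chow. The western diet gave 278 to 1163 (median 920), meeting the starch/oleate range at its upper end. The log2 differences from chow were 1.73 ± 0.27 with starch/oleate (adjusted p = 8.7e-07), 1.24 ± 0.26 with sucrose/oleate (adjusted p = 0.00032) and 0.85 ± 0.27 with starch/palmitate (adjusted p = 0.020). The western diet gave 0.78 ± 0.27 (adjusted p = 0.020), and sucrose/palmitate 0.57 ± 0.26, which did not pass (adjusted p = 0.13). Of 4 other scavenger and lipid receptors measured, none was higher in any diet, and 1, 3, 3, 2 and 4 were lower with sucrose/palmitate, starch/palmitate, sucrose/oleate, starch/oleate and the western diet. Of all 491 genes tested, 11, 23, 38, 59 and 39 were called lower in the same order. Cd163, which takes up haemoglobin, fell by 1.20 on the log2 scale with starch/oleate (adjusted p = 2.5e-05), and Cd209g, a lectin, by 1.07 (adjusted p = 6.1e-05).

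Itgam passed in the fewest diets. Its chow libraries spanned 489 to 1532 (median 1063). The sucrose/palmitate libraries spanned 563 to 1857 (median 1100) and the starch/palmitate libraries 730 to 1657 (median 1108), so both lay over the chow range. Sucrose/oleate gave 1033 to 1687 (median 1435), with 3 of 9 libraries above the highest chow library, and the western diet 384 to 1974 (median 1481), with 3 of 7. Starch/oleate stood above these, at 1240 to 3009 (median 2022), with 8 of 9 libraries above chow. Its log2 difference from chow was 0.95 ± 0.22 in starch/oleate (adjusted p = 0.00026), 0.40 ± 0.22 in sucrose/oleate (adjusted p = 0.15) and 0.37 ± 0.23 in the western diet (adjusted p = 0.19). The palmitate diets gave 0.13 ± 0.22 with sucrose (adjusted p = 0.70) and 0.08 ± 0.23 with starch (adjusted p = 0.83), with 95% intervals of -0.31 to 0.57 and -0.38 to 0.53. Without western diet replicate 2, the western diet difference was 0.54 and passed (adjusted p = 0.028). Without all 6 libraries with high epithelium markers it was 0.60 (adjusted p = 0.019).

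CD18, the partner chain of CD11b, is encoded by Itgb2, which had scaled counts of 572 to 5039 (median 2935) in chow and 3450 to 8484 (median 7981) in starch/oleate. Its log2 difference from chow was 1.31 ± 0.30 in starch/oleate (adjusted p = 0.00025) and 0.55 ± 0.30 in sucrose/oleate, which did not pass (adjusted p = 0.14). The western diet gave 0.48 (adjusted p = 0.22), sucrose/palmitate 0.20 (adjusted p = 0.67) and starch/palmitate 0.13 (adjusted p = 0.79). Itgax, which encodes CD11c, the chain that pairs with CD18 in inflammatory macrophages and dendritic cells, was higher in every diet. Its log2 difference was 1.16 ± 0.33 in sucrose/palmitate (adjusted p = 0.019), 1.00 ± 0.34 in starch/palmitate (adjusted p = 0.024) and 1.97 ± 0.33 in sucrose/oleate (adjusted p = 1.2e-05). It was 1.92 ± 0.33 in starch/oleate (adjusted p = 4.6e-06) and 1.69 ± 0.34 in the western diet (adjusted p = 0.00016). The starch/palmitate call of Itgax was lost with the spiked control ratio as a covariate. Of the 6 chains and ligands of CD18 measured, 4 were higher and 1 was lower with starch/oleate. There 48.3% of all genes were called higher and 59 of 491 lower. Besides Itgb2 and Itgax, the higher ones were Itgal (1.12 ± 0.18, adjusted p = 2.0e-06) and the ligand Icam1 (0.84 ± 0.14, adjusted p = 3.0e-06). The lower one was Icam2, an endothelial ligand, at -0.86 ± 0.14 (adjusted p = 2.2e-06).

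Neutrophils and natural killer cells also carry CD11b, and their markers are given beside Itgam. In starch/oleate, where 48.3% of all genes were called higher, 3 of 5 neutrophil markers tested were higher and 7 of 8 natural killer markers were. The summed neutrophil markers overlapped between chow (283 to 1456) and starch/oleate (354 to 4274), and Cxcr1 and Camp had mean counts under 10. The summed natural killer markers ran from 162 to 412 in chow and from 419 to 867 in starch/oleate, without overlap. In the western diet, with 32.8% of all genes called higher, 0 of 5 neutrophil markers passed and the sum was 309 to 731. In starch/oleate 7 of 8 T cell markers, 4 of 6 dendritic cell markers and 3 of 3 mast cell markers were higher too. The neutrophil and dendritic cell counts lie near the share of all genes. Their summed scaled counts were 192 to 321 in chow and 366 to 820 in starch/oleate for T cells, 573 to 3986 and 5699 to 11579 for dendritic cells, and 224 to 339 and 367 to 767 for mast cells. The part of these cells in the levels of Itgam and the other genes was not tested.

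Of the endotoxin-sensing genes, Cd14 had scaled counts of 304 to 795 (median 541) in chow. It reached 1045 to 1581 (median 1222) in starch/oleate, with all 9 libraries above chow, and 717 to 1691 (median 1109) in sucrose/oleate, with 8 of 9. The western diet gave 419 to 1577 (median 1138), sucrose/palmitate 488 to 1464 (median 898) and starch/palmitate 543 to 1184 (median 849). Cd14 was raised in all 5 diets, by 0.67 ± 0.20 on the log2 scale in sucrose/palmitate (adjusted p = 0.025) and 0.58 ± 0.21 in starch/palmitate (adjusted p = 0.035). The starch/palmitate call was lost under TMM scaling, with the replicate block and by DESeq2. The oleate and western diets gave 1.01 ± 0.20 with sucrose/oleate (adjusted p = 0.00011), 1.15 ± 0.20 with starch/oleate (adjusted p = 5.1e-06) and 1.00 ± 0.21 with the western diet (adjusted p = 0.00022).

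Ly96, the MD-2 gene, had the smallest coefficient of variation in chow, 27.7%. Its chow libraries spanned 279 to 688 (median 468), and its starch/oleate libraries 701 to 1052 (median 942), all above chow. Sucrose/oleate gave 565 to 834 (median 690), with 5 of 9 libraries above chow, and the western diet 341 to 894 (median 650), with 3 of 7. The palmitate groups overlapped chow, at 367 to 770 (median 541) with sucrose and 414 to 844 (median 598) with starch. The log2 difference from chow passed in starch/oleate (0.93 ± 0.16, adjusted p = 6.1e-06) and in sucrose/oleate (0.49 ± 0.16, adjusted p = 0.015). It was 0.40 ± 0.17 in the western diet (adjusted p = 0.056), 0.30 ± 0.17 in starch/palmitate (adjusted p = 0.18) and 0.17 ± 0.17 in sucrose/palmitate (adjusted p = 0.50). Without the 6 libraries with high epithelium markers, the western diet difference of Ly96 was 0.56 and passed (adjusted p = 0.0084).

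Ly86, the MD-1 gene, had scaled counts of 261 to 890 (median 613) in chow. The sucrose/oleate libraries (960 to 1690, median 1331) and the starch/oleate libraries (1360 to 2011, median 1516) were all above the highest chow library. Over all tested genes, 5.3% in sucrose/oleate and 19.6% in starch/oleate had every library above chow. The western diet libraries ran from 557 to 2196 (median 1615), the sucrose/palmitate libraries from 555 to 1671 (median 1011) and the starch/palmitate libraries from 603 to 1833 (median 1045). Ly86 rose in each diet, by 0.70 ± 0.22 (adjusted p = 0.032) in sucrose/palmitate, 0.87 ± 0.23 (adjusted p = 0.0051) in starch/palmitate and 1.09 ± 0.22 (adjusted p = 0.00016) in sucrose/oleate. The log2 difference was 1.33 ± 0.22 (adjusted p = 2.7e-06) in starch/oleate and 1.20 ± 0.23 (adjusted p = 8.9e-05) in the western diet. B cells also carry MD-1. Their markers were higher for 5, 1, 2, 7 and 6 of 7 genes tested in sucrose/palmitate, starch/palmitate, sucrose/oleate, starch/oleate and the western diet. The shares of all genes called higher were 14.9%, 20.6%, 28.9%, 48.3% and 32.8%, so the 1 of 7 and the 2 of 7 do not exceed the background. In sucrose/oleate the 2 were Blnk and Btk, and Btk was also among the genes most like Itgam. The part of B cells in the Ly86 level was not tested. The summed scaled count of the B cell markers was 457 to 1937 in chow and 2810 to 3657 in starch/oleate, without overlap, and Cd79a and Cr2 had mean counts under 10. Emr1, Cd14 and Ly86 were higher in all 5 diets, as were 37 of the 491 genes (7.54%). With the spiked control ratio as a covariate, these 3 genes passed in starch/oleate and the western diet but in none of the other 3 diets, with adjusted p up to 0.32 for Emr1, 0.39 for Cd14 and 0.29 for Ly86.

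**Figure D2:**
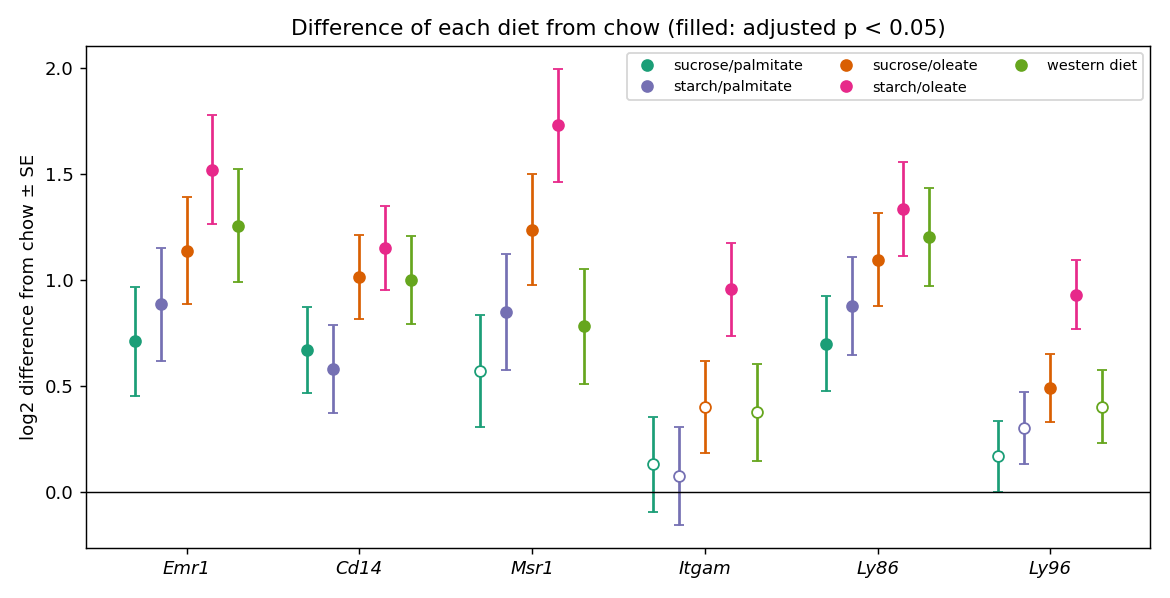
Log2 difference of each of the 5 fat-rich diets from chow for the 6 genes, with its SE. Filled points passed an adjusted p of 0.05, and the open points are Msr1 in 1 diet, Itgam in 4 and Ly96 in 3.

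The comparisons with chow share the chow libraries, so the diets were also compared with each other. Over the 15 pairs of diets and 6 genes, 35 of 90 differences passed, 13 of them without chow, against 20.8% of all differences and 13.2% of those without chow. Starch/oleate was above sucrose/palmitate for 6 of the 6 genes, against 28.7% of all genes, and above starch/palmitate for 4 (Cd14, Msr1, Itgam and Ly96), against 24.2%. It was above sucrose/oleate for Ly96 alone of the 6, at 0.44 ± 0.16 (adjusted p = 0.046), against 9.98% of all genes. This call was lost under TMM scaling, where 0 of the 6 genes passed. The western diet was below starch/oleate for Msr1 (-0.95 ± 0.27, adjusted p = 0.016) and Ly96 (-0.53 ± 0.17, adjusted p = 0.029), against 10.4%. With the spiked control ratio as a covariate, 0 of the 6 genes passed in this comparison. For Emr1, Cd14 and Ly86 the western diet difference from starch/oleate was -0.26, -0.15 and -0.13, with adjusted p from 0.52 to 0.71. Among neighbours in the order of means, the step from chow to the next diet passed for Emr1, Cd14 and Ly86, the step from sucrose/oleate to starch/oleate passed for Ly96, and no other step passed.

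The 4 custom diets allow the fat and the carbohydrate to be set apart. With the carbohydrates averaged, palmitate was below oleate for 6 of 6 genes, against 23.6% of all genes called lower. Msr1 fell by 0.77 on the log2 scale (SE 0.19, adjusted p = 0.0018) and Itgam by 0.57 (SE 0.16, adjusted p = 0.0046). Emr1 fell by 0.53 (SE 0.18, adjusted p = 0.019), Ly96 by 0.48 (SE 0.12, adjusted p = 0.0021), Cd14 by 0.46 (SE 0.14, adjusted p = 0.011) and Ly86 by 0.43 (SE 0.16, adjusted p = 0.030). The Ly86 call did not hold with the replicate number as a block (adjusted p = 0.054). Sucrose against starch, with 4.07% of all genes called higher and 5.91% lower, gave 0 calls among the 6 genes by edgeR, although Ly96 (-0.29 ± 0.12) and Msr1 (-0.38 ± 0.18) had unadjusted p of 0.017 and 0.042, and DESeq2 also gave 0. The interaction of carbohydrate and fat, with 4.07% of all genes called higher and 1.43% lower, gave 0 calls by edgeR and 0 by DESeq2, and no gene had an unadjusted p under 0.05. The nearest was Itgam at 0.61 ± 0.31 (adjusted p = 0.30), with a 95% interval of -0.0052 to 1.22.

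The 6 genes varied together from library to library. With each diet's mean removed, Pearson's r between members over 48 libraries ran from 0.861 (Itgam and Ly86) to 0.961 (Emr1 and Ly86). Chow replicate 4 was the lowest chow library for all 6 genes, and sucrose/palmitate replicate 1 was the highest of its group for all 6. Starch/palmitate replicates 4 and 7 were the highest and lowest of their group for every one of them, and western diet replicates 4 and 2 likewise. All genes of a library share its scaling factor, and r is given as a description. The spread within a diet also differed: the coefficient of variation of Emr1 was 39.6% in chow and 44.1% in sucrose/palmitate, but 15.2% in starch/oleate. This difference in spread was not tested.

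**Figure D3:**
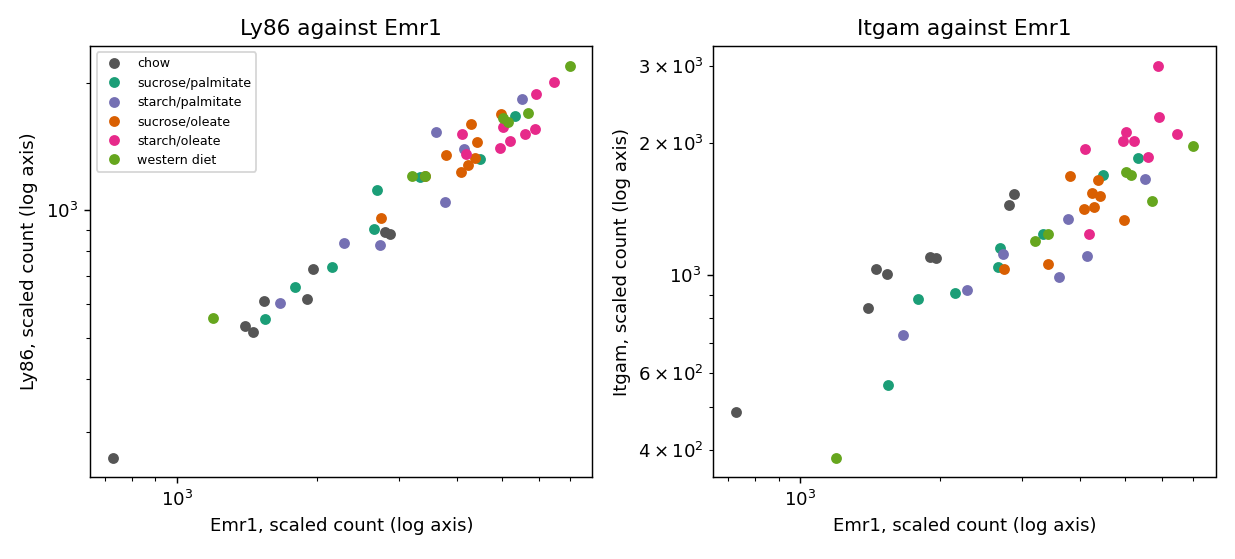
Scaled counts of Ly86 (left) and Itgam (right) against Emr1 in each of the 48 libraries, both axes logarithmic, coloured by diet. Ly86 follows 1 line in all diets (r = 0.978 over all libraries), whereas the chow libraries lie above the others for Itgam (r = 0.880).

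Genes with the most similar pattern were then found, with r of log2 values over the 48 libraries. Over all libraries Emr1 was most like Ebi3 (r = 0.967), Tlr8 (0.966) and Ptpn6 (0.961), and Ly86 most like Ptpn6 (0.975), Ebi3 (0.960) and Lair1 (0.958). Ly96 was most like Lilrb3 (0.978), Fcer1g (0.975) and Cd48 (0.974), and Itgam most like Lilrb3 (0.961), Fcer1g (0.956) and Btk (0.950). Cd14 was nearest to Tnfrsf11a (0.949), Tlr8 (0.941) and Lilrb3 (0.934), and Msr1 to Tyrobp (0.969), Cd48 (0.962) and Ctss (0.959). The median r with other genes was 0.247 to 0.360. With diet means removed, Msr1 was nearest to Lilrb4 (0.961), Trem2 (0.955) and Tyrobp (0.952).

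Because the genes moved together, each was also set against Emr1 in the same library, which leaves the scaling to reference genes out. Relative to Emr1, Itgam and Ly96 were lower than in chow in all 5 diets, and Ly86 was in 1. The ratio of Itgam to Emr1 counts was 0.516 to 0.709 in chow and did not exceed 0.511 in any of the 40 libraries of the fat-rich diets. The group means were 0.602 ± 0.069 (SD) in chow, 0.400 ± 0.047 in sucrose/palmitate, 0.350 ± 0.070 in starch/palmitate, 0.352 ± 0.048 in sucrose/oleate, 0.394 ± 0.070 in starch/oleate and 0.325 ± 0.041 in the western diet. Of 490 genes, 2 (0.408%) had every fat-rich library below the lowest chow ratio, and the other, named after its values were seen, was the chemokine gene Ccl6.

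In the fit scaled to Emr1, Itgam differed from chow by -0.59 ± 0.12 (adjusted p = 0.00070) in sucrose/palmitate, -0.78 ± 0.12 (adjusted p = 1.0e-05) in starch/palmitate and -0.77 ± 0.12 (adjusted p = 9.6e-07) in sucrose/oleate. It differed by -0.61 ± 0.12 (adjusted p = 9.3e-06) in starch/oleate and -0.89 ± 0.13 (adjusted p = 3.2e-07) in the western diet. Ly96 differed by -0.53 (adjusted p = 0.011), -0.58 (adjusted p = 0.0020), -0.71 (adjusted p = 2.9e-05), -0.66 (adjusted p = 3.2e-05) and -0.76 (adjusted p = 5.8e-05) in the same order. Many genes were lower relative to Emr1, with 21.2%, 52.9%, 82.0%, 81.8% and 69.8% of all genes called lower in these diets, so these calls are read against that share. Ly86 differed by -0.0071 in sucrose/palmitate and -0.0021 in the western diet, with 95% intervals of -0.20 to 0.19 and -0.20 to 0.20, and was called lower in starch/oleate (-0.21, adjusted p = 0.046), a call lost in 10 of the 48 fits without 1 library. Cd14 was lower relative to Emr1 in starch/oleate (-0.42, adjusted p = 0.00079) and starch/palmitate (-0.29, adjusted p = 0.043), the latter lost in 9 of these 48 fits.

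Msr1 was lower relative to Emr1 in the western diet (-0.35 ± 0.13, adjusted p = 0.016). In starch/oleate it was called higher (0.26 ± 0.12, adjusted p = 0.047), where 1.02% of all genes were, but this call was lost in 16 of the 48 fits that each left out 1 library (adjusted p up to 0.15). The mean ratio of Msr1 to Emr1 was 0.259 ± 0.055 (SD) in chow, 0.310 ± 0.051 in starch/oleate and 0.204 ± 0.032 in the western diet. The chow range overlapped both others, and the lowest starch/oleate ratio (0.268) lay above the highest western diet ratio (0.251). These 2 diets were not tested against each other relative to Emr1, and the share of all genes so separated was not counted. Between palmitate and oleate, Msr1 relative to Emr1 was lower with palmitate (-0.20 ± 0.09, adjusted p = 0.036), as were 1.22% of all genes, and 8 of the 48 fits that each left out 1 library lost this call.

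**Figure D4:**
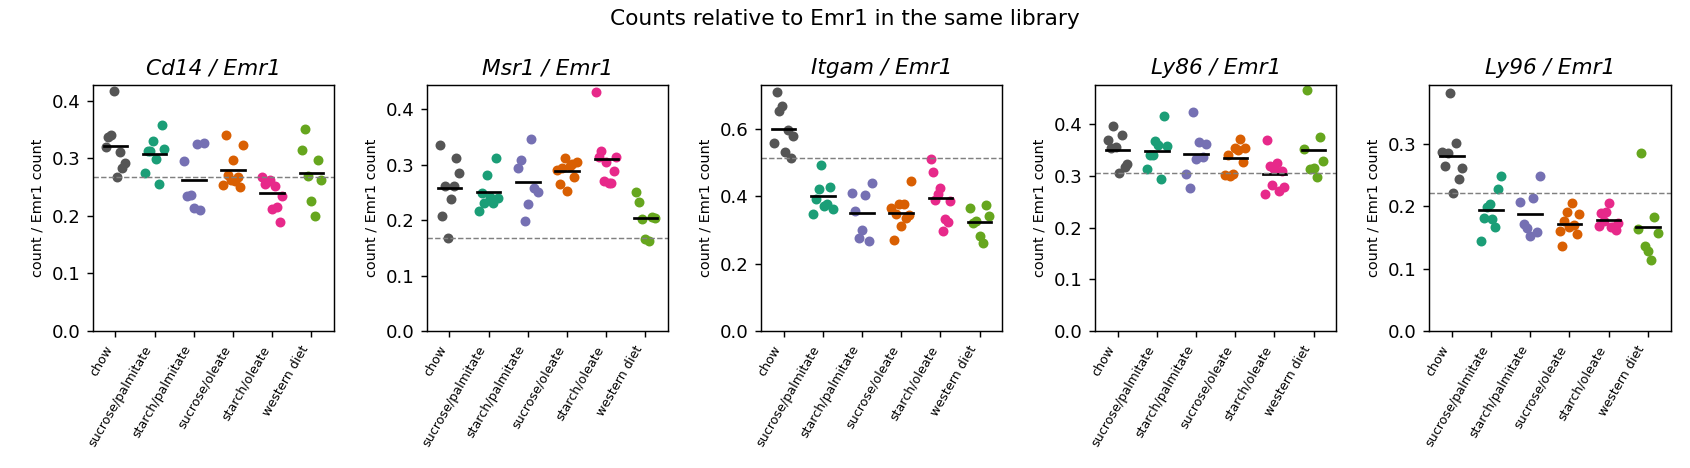
Counts of 5 genes divided by the Emr1 count of the same library, by diet (points), with the group mean (line); the dashed line is the lowest chow library. All 40 fat-rich libraries lie below it for Itgam, and the Ly86 panel shows no such shift.

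Other genes of the endotoxin pathway were then counted. Of 20 carriers, receptors, adaptors, kinases and inhibitors listed, 14 were measured, and Lbp, Cd180, Ticam1 and Ticam2 were not analysed here. Against chow, 1, 1, 5, 7 and 4 of the 14 were higher with sucrose/palmitate, starch/palmitate, sucrose/oleate, starch/oleate and the western diet, and 1 was lower in each. The shares of all genes called higher, given above for these diets, were 14.9%, 20.6%, 28.9%, 48.3% and 32.8%, so the 7 of 14 in starch/oleate and the 4 of 14 in the western diet lie near the background. With the spiked control ratio as a covariate, 0, 0, 1, 6 and 4 of the 14 were higher and 1, 0, 0, 1 and 1 lower. Under TMM scaling 0, 0, 2, 3 and 2 of the 14 were higher and 1, 2, 3, 6 and 2 lower in the same order. Their median log2 difference was 0.17 with starch/oleate, against 1.24 for the 6 genes and 0.34 for all genes, and it turned to -0.15 under TMM scaling. Tlr4, the receptor that binds MD-2, had scaled counts of 533 to 799 (median 631) in chow and 710 to 925 (median 802) in starch/oleate. Its log2 difference was 0.33 ± 0.13 in starch/oleate (adjusted p = 0.029) and 0.22 in sucrose/oleate (adjusted p = 0.19), -0.02, 0.08 and -0.03 in the other diets. The starch/oleate call was lost under TMM scaling (0.0025, adjusted p = 0.99), under which Tlr4 was lower in the western diet (-0.26, adjusted p = 0.047).

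Tnfaip3, the deubiquitinase A20 that restrains NF-kappa B, was the 1 pathway gene higher in all 5 diets, from 0.36 in starch/palmitate (adjusted p = 0.042) to 0.90 in starch/oleate (adjusted p = 2.0e-07). The sucrose/palmitate and starch/palmitate calls were lost under TMM scaling (adjusted p = 0.16 and 0.14) and with the spiked control ratio as a covariate. Irak2, a kinase downstream of MyD88, was the 1 lower gene in each diet, from -0.23 in sucrose/oleate (adjusted p = 0.033) to -0.52 in the western diet (adjusted p = 3.4e-05). Its calls in starch/palmitate and sucrose/oleate were lost with the spiked control ratio as a covariate. The adaptor Myd88 was higher in sucrose/oleate (0.29, adjusted p = 0.012), starch/oleate (0.44, adjusted p = 7.4e-05) and the western diet (0.43, adjusted p = 0.00057), and 0 of these calls held under TMM scaling. Irf5, a transcription factor of inflammatory macrophages, was higher in the same 3 diets, by 0.75, 1.15 and 0.80 (adjusted p from 3.3e-05 to 0.0076). In sucrose/oleate only 1 of the 14 pathway genes stayed higher with the spiked control ratio as a covariate. Palmitate was below oleate for 6 of the 14 genes, Tlr4 (-0.24, adjusted p = 0.038) and Tnfaip3 (-0.51, adjusted p = 4.5e-05) among them. Under TMM scaling 2 of the 14 were lower and 1 higher.

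For other macrophage genes the counts were larger with the oleate diets in the fit without covariates. Of 22 listed, 17 were measured, and 3, 5, 14, 15 and 10 were higher than in chow with sucrose/palmitate, starch/palmitate, sucrose/oleate, starch/oleate and the western diet. The shares of all genes called higher were 14.9%, 20.6%, 28.9%, 48.3% and 32.8%, so the 3 of 17 with sucrose/palmitate lie near the background. With the spiked control ratio as a covariate, 3, 0, 3, 15 and 10 of the 17 were higher. Without this covariate the median log2 difference was 1.45 in starch/oleate, and Ccr2, the receptor that recruits monocytes, was lower in the western diet (-0.80, adjusted p = 0.00072). Lair1, an inhibitory collagen receptor, was higher by 1.04 in sucrose/palmitate (adjusted p = 0.012) and 2.10 in starch/oleate (adjusted p = 2.6e-08). Fcer1g, the common chain of activating Fc receptors, was higher by 1.45 in starch/oleate (adjusted p = 2.6e-06). Of the adipocyte markers, 3, 3, 2, 2 and 3 of 4 measured were lower in the same order of diets and 0 were higher. Over all 491 genes tested, 11, 23, 38, 59 and 39 were called lower. The summed scaled count of the adipocyte markers was 85921 to 308350 in chow and 54318 to 75747 in starch/oleate, without overlap. The part of this shift in the levels of the 6 genes was not tested.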

How the data were processed

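RNA of 48 fat pads was measured. The values deposited by the authors are raw counts (whole barcodes per probe) for 547 genes, 14 reference genes, 8 negative and 6 positive controls, and a lowest value of 1. The counting software is not given in the sources used here. Of the probes, 549 were matched to RefSeq by accession.

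Library factors came from the 14 reference genes (geometric mean). One edgeR 4.0.16 (R 4.3.3) quasi-likelihood fit, with a mean per diet over all 48 libraries, gave 18 comparisons and an overall test. It used 491 genes averaging 10 or more counts, two-sided p-values and Benjamini-Hochberg adjustment over all genes tested, and an adjusted p under 0.05 was called. Intervals are 95%. A second fit used the Emr1 count as scaling (490 genes). Total gene counts were 396391 to 888687 per library. The scripts were tested on simulated data. The members and gene lists were chosen with earlier results of these data known. Genes named besides the members were taken from the 3 with the lowest adjusted p in each list and comparison, and not all of these are named. Tlr4, Cd180, Itgb2 and Lbp where measured, and the 3 most alike genes of each member, were named too. Several further genes that passed, or that show the values of a list, were named after their values were seen: Myd88 and Irf5 in all diets, Cd163, Cd209g and Icam2 where outside the rule, Ccr2 and Ccl6.

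No 2 libraries agreed within sampling noise (lowest chi-square per degree of freedom 4.69 over 1128 pairs). Replicate numbers did not pair libraries: residuals of same-numbered libraries had a mean r of -0.0156 over 112 pairs, against 0.0067 over 846 other pairs. Alternatives were scaling by TMM, no filter, a stricter minimum of 30 counts, the replicate block, DESeq2 1.42.0, the positive control ratio as a covariate, leaving out the 6 libraries with high epithelium markers, fitting the compared groups alone, and leaving out each of the 48 libraries in turn.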

Additional observations from a re-analysis of the deposited data

How the results depend on the processing

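The calls in starch/oleate (6 genes) and the western diet calls of Emr1, Cd14 and Ly86 held under all 8 alternatives that bear on them, and no difference of a called gene reversed. The number of genes called with sucrose/palmitate, 3, was 1 with the replicate block, 0 when the ratio of the spiked controls was a covariate and 0 with the compared groups alone. With that ratio as a covariate, starch/palmitate went from 4 to 0 calls, sucrose/oleate from 5 to 0 and the pairs of diets from 35 to 22, and the cause was not tested. The block moved no other count by over 1.5 times, though it lost the Ly86 call of palmitate against oleate (adjusted p = 0.054). The western diet call of Msr1 was lost under TMM scaling, DESeq2 and the compared groups alone.

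Leaving out 1 library gave 0 to 4 genes for sucrose/palmitate, 1 to 4 for starch/palmitate, 5 to 5 for sucrose/oleate, 6 to 6 for starch/oleate, 3 to 6 for the western diet, 5 to 6 for palmitate against oleate and 0 to 0 for sucrose against starch and the interaction. The overall test gave 6 to 6, the pairs 31 to 41, and the calls relative to Emr1 in the 5 comparisons with chow (15), 12 to 16. For sucrose/palmitate the count was 0 without chow replicate 4 or 6 or sucrose/palmitate replicate 1, and 1 without chow replicate 2 or sucrose/palmitate replicate 6 or 7. For starch/palmitate it was 1 without starch/palmitate replicate 4.

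TMM scaling lowered the median of all genes against chow from between 0.19 and 0.34 to between 0.0097 and 0.08, and called 2, 3, 5, 6 and 3 of the 6 genes in the order of diets used above.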
